A study of Mus musculus with 14 samples.

Results

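The comparison described here sets the livers of mice with both copies of the lamin A/C gene Lmna floxed against those of mice with 1 floxed copy, all fed a high-fat, sugar-supplemented diet. It rests on 6 of the 14 arrays of the series, chosen by their labels, with 1 mouse per array and 3 arrays in each group. All 22180 genes measured by a probe set with a single gene symbol were tested. The KO livers, arrays C2, C3 and C4, carried LMNA flx/flx; Alb-cre+, and the mice were 35.3 weeks old. The HET livers, arrays A2, B1 and B2, carried LMNA flx/+; Alb-cre+, from mice of 30.4, 30 and 30 weeks. All mice were male C57BL/6. For 14 weeks both groups ate the Surwit Diet, an energy-dense rodent diet rich in fat, and drank sugar water that held 55% fructose and 45% sucrose at 42 g/L in all. This regimen is called HFD below. The chow groups used for comparison had 3 KO mice of 38.9 weeks and 3 HET mice of 24 to 26.4 weeks with the same genotypes, and 2 mice of LMNA +/+; Alb-cre+ were also measured on chow. Every mouse of the series carried Alb-cre, a recombinase driven by the albumin promoter, so the controls share it, and no mouse without a floxed copy was measured on HFD. The albumin promoter is known to act mainly in hepatocytes, and Alb-cre is also known to recombine in bile duct cells that share their embryonic origin. In which cells of these livers Lmna was deleted was not measured.

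Lamins A and C, both made from Lmna, are intermediate filament proteins that line the inner face of the nuclear envelope, where they support the shape of the nucleus and tether silent chromatin. Hepatocytes make up most of the liver's mass and carry out its fat, bile acid, drug and steroid metabolism. Liver transcript levels of many such genes differ between the sexes, largely through the sex-specific pattern of growth hormone release. Injury to hepatocytes is known to draw in immune cells and to start matrix deposition.

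Values below are log2 intensities, so a difference of 1 is a doubling, and ± after a difference is the standard error from limma. A gene was called when its limma p, adjusted over all genes by the method of Benjamini and Hochberg, was under 0.05. The arrays had medians of 2.21 to 2.30, and the size of a change is uncertain for a gene near that level in 1 group. A limma p sets a group difference against the spread between individual mice, estimated over all 5 groups together. The samples are whole liver, in which fewer cells of a type and less RNA per cell cannot be told apart. Age and genotype cannot be told apart on HFD either, since the KO mice were on average 5.17 weeks older. All 3 KO arrays carry the letter C in their names and the HET arrays carry A or B, and the labels do not say what the letter stands for. Between-array correlation was 0.993 to 0.994 within KO, 0.990 to 0.993 within HET and 0.981 to 0.985 between the groups.

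Lmna itself was measured by 1 dim probe set. Its values were 4.07, 4.07 and 4.30 in the HET arrays A2, B1 and B2 and 3.90, 4.07 and 3.99 in the KO arrays C2, C3 and C4. The groups overlapped, and the difference of -0.16 ± 0.12 was not called (limma adjusted p = 0.517). The sources used here do not say which part of the gene the probe set covers or whether that part is deleted, so its level does not check the genotype labels. Of 16 measured genes of the nuclear lamina and its partners, none was called by limma and 2 had an unadjusted p under 0.05, a threshold passed by 4551 of all 22180 genes (20.5%). Their median difference was 0.03, a sign that turned with a further quantile normalization (-0.05). Hepatocyte markers were bright on all 6 arrays. Albumin (Alb) lay between 13.36 and 13.47 and transthyretin (Ttr) differed by -0.01 ± 0.08, but both sit close to the highest values of the arrays, where a change could be hidden. Differences were also negative for the other hepatocyte markers checked, with Apoa1 (-0.41), Apob (-0.36) and Hnf4a (-0.36) called lower and Serpina1a (-0.36), Asgr1 (-0.15) and F2 (-0.05) not called.

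On HFD 1677 of 22180 genes (7.56%) were called between KO and HET. Of these, 1221 (5.50%) were higher and 456 (2.06%) lower in KO. The counts of called list members given below are to be read against these shares. A change of at least 2-fold was reached by 707 called genes (3.19%), 631 of them higher. The values of the 3 KO and 3 HET arrays did not overlap for 5804 genes (26.2%), among them 1671 of the 1677 calls. The median difference over all genes was -0.02. The count fell to 1038 without array C2 and to 971 without array C4.

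**Figure D1:**
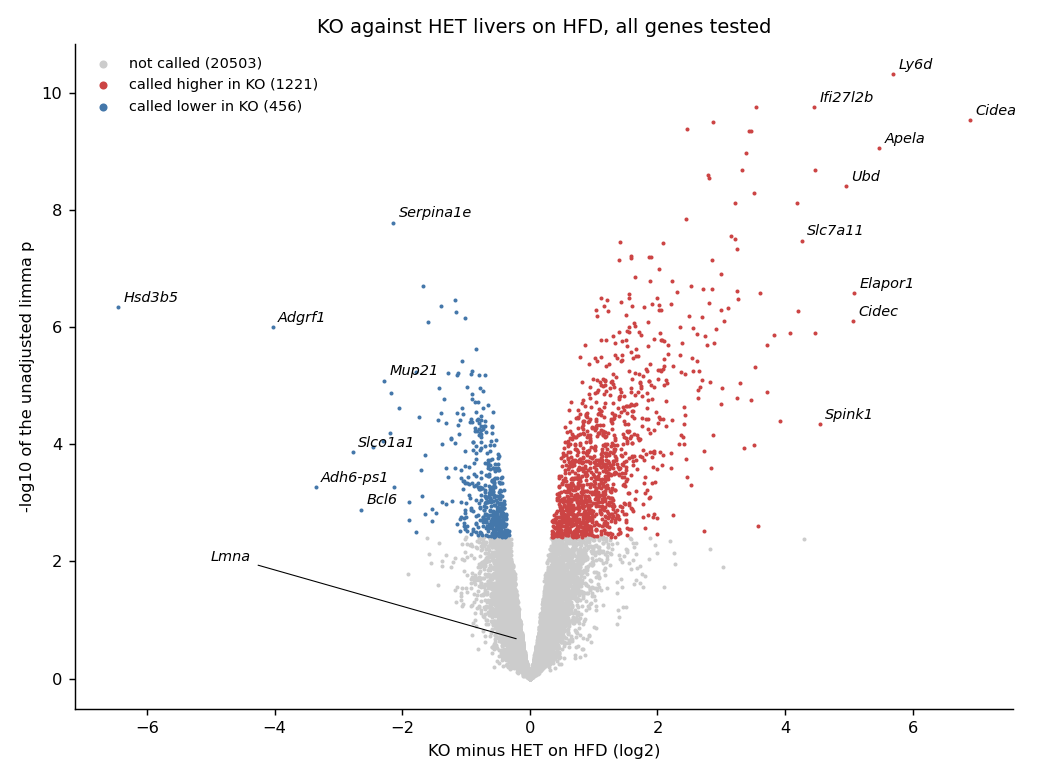
Each point is 1 of the 22180 genes; the x axis is the KO minus HET difference on HFD (log2) and the y axis is -log10 of the unadjusted limma p. Red points are the 1221 genes called higher in KO and blue points the 456 called lower; Cidea lies farthest to the right at 6.90, Hsd3b5 farthest to the left at -6.46, and Lmna lies among the genes not called.

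A fit with age as a linear term called 249 genes, 77 of them shared with the fit above. Its age slope rests on differences of at most 2.4 weeks within a group and is extended to the gap of 5.17 weeks. All KO mice on the same diet were of the same age, so no KO array informs the slope. The HET mice on HFD differed by at most 0.4 weeks, so the slope comes mainly from LMNA +/+ and HET mice on chow. Calls kept or lost in that fit, here and below, therefore do not tell age from genotype. Of the 124 genes named below that were called on HFD, 27 were still called in that fit and 118 kept their direction. Those still called included Cidea, Cidec, Cd36 and Mogat1 among the lipid genes, Usp18, Irf7, Oasl2 and Ifi27l2b among the interferon genes, and Abcc4, Nqo1, Cx3cr1, Ly6d and Apela. Where a gene's difference reversed in that fit, it is stated beside the gene.

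The largest rises formed a mixed group of lipid droplet, epithelial, oncofetal, interferon and redox genes. Cidea encodes a protein that fuses lipid droplets and is best known from brown fat (probe set 17351457). It measured 2.44, 2.13 and 2.02 in HET and 9.02, 8.63 and 9.63 in KO. The HET arrays lay at about the array median and all KO arrays were far above it, a difference of 6.90 ± 0.40 (limma adjusted p = 1.26e-06). Ly6d, a small membrane-anchored protein of keratinocytes and early B cells, had HET values of 3.75, 3.76 and 3.38 and KO values of 9.35, 9.15 and 9.47. Its groups were widely separated, with a difference of 5.69 ± 0.28 (limma adjusted p = 1.06e-06). Apela encodes an embryonic peptide hormone that acts on the apelin receptor. Its level was 1.66, 1.36 and 1.39 in HET, below the array median, and 6.63, 6.82 and 7.38 in KO, a difference of 5.47 ± 0.35 (limma adjusted p = 2.14e-06).

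Other large rises were less even between mice. Elapor1, an endosomal and lysosomal membrane protein, was at 2.87, 3.01 and 2.59 in HET and at 7.92, 7.04 and 8.74 in KO, a difference of 5.08 ± 0.52. The KO value was highest in C4 and lowest in C3, which was also the order for Cidea, Cidec, Ubd, Anxa13 and Sptlc3. Slc39a4, the zinc importer ZIP4, measured 6.29, 5.26 and 4.0 in HET and 9.30, 8.90 and 9.99 in KO, a difference of 4.21 ± 0.46, and the HET arrays were themselves spread over more than 2 log2 units. Without the low HET array B2 its difference was 3.62. Spink1, a secreted trypsin inhibitor, rose by 4.54 ± 0.75, Sprr1a, a cornified envelope protein, by 4.18 ± 0.32, and Sptlc3, a subunit of serine palmitoyltransferase that starts sphingolipid synthesis, by 4.08 ± 0.48. Their HET means lay near or below the array median, so only their direction is firm.

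**Figure D2:**
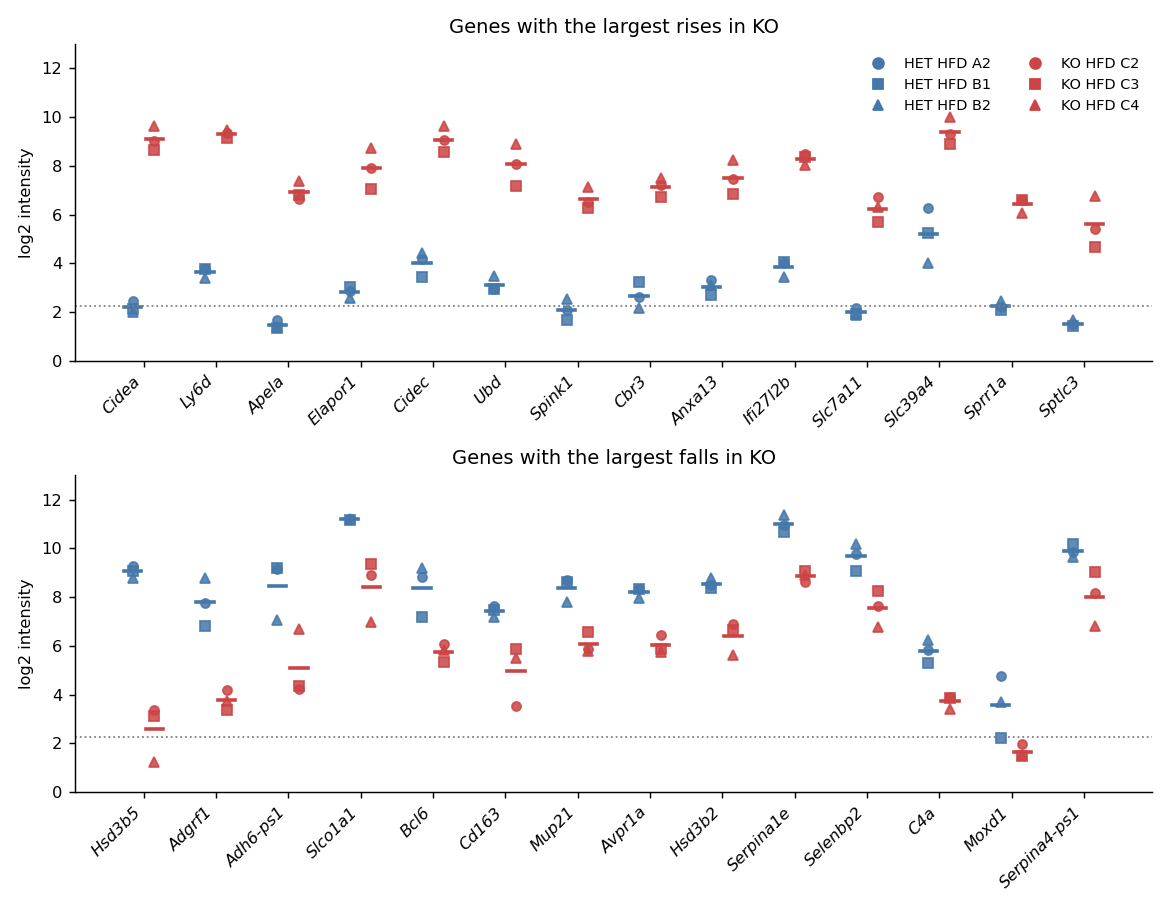
The log2 intensity of the 14 genes with the largest rises (top) and the 14 with the largest falls (bottom) is shown for each of the 6 HFD arrays; blue symbols are HET, red symbols KO, bars are group means, symbol shapes tell the arrays of a group apart, and the dotted line is the typical array median. Separate HET and KO values were required for a gene to be shown here, so their separation is not a finding of the figure. Over all genes, 5804 of 22180 (26.2%) have separate groups. Hsd3b5 falls from 9.29, 9.09 and 8.78 in HET to 3.38, 3.14 and 1.25 in KO.

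The 14 largest falls were of mixed kinds: enzymes, carriers, receptors, secreted proteins and the repressor Bcl6. Hsd3b5, a male-specific steroid dehydrogenase of liver (probe set 17408315), measured 9.29, 9.09 and 8.78 in HET and 3.38, 3.14 and 1.25 in KO. It went from a bright signal to the range of dim genes, with array C4 lowest, and the difference was -6.46 ± 0.69 (limma adjusted p = 0.000162); with age in the fit it was -2.85 and not called (limma adjusted p = 0.489). Adgrf1, an adhesion G protein-coupled receptor, had HET values of 7.77, 6.81 and 8.79 and KO values of 4.20, 3.35 and 3.73, a difference of -4.03 ± 0.46. Slco1a1, an importer of organic anions at the hepatocyte surface, was even in HET at 11.21, 11.17 and 11.20 and uneven in KO at 8.89, 9.36 and 6.97. Its difference of -2.78 ± 0.52 became -2.07 without C4 and -0.42 with age in the fit (limma adjusted p = 0.931). Serpina1e, one of the alpha-1-antitrypsin genes, measured 10.96, 10.69 and 11.37 in HET and 8.63, 9.06 and 8.90 in KO. Its difference of -2.14 ± 0.17 had the smallest p of the 14 largest falls (limma adjusted p = 1.83e-05). The array may not separate Serpina1e from its relatives, nor Hsd3b5 from Hsd3b2, which fell by 2.17 ± 0.32.

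Some of these calls were marginal and were lost with fewer arrays. The call of Adh6-ps1, a pseudogene of the alcohol dehydrogenases (-3.36 ± 0.73), was lost without A2, B1, C2 or C3, with limma adjusted p of 0.0556 to 0.0646 and differences of -2.92 to -3.01; its HET array B2 (7.05) and KO array C4 (6.71) lay close together. Calls were also lost for Selenbp2 (-2.13) without B2 or C4, for Moxd1 (-1.90) without B2, C3 or C4, and for Serpina4-ps1 (-1.89) without any 1 of A2, B1, B2, C2 and C4, with limma adjusted p between 0.0542 and 0.116. By contrast, Avpr1a, the hepatic vasopressin receptor (-2.20 ± 0.38), and Mup21, a major urinary protein (-2.28 ± 0.32), were called without any of the 14 arrays in turn.

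Promoter sequences are shown for 4 interferon-stimulated genes that rose, because they carry the element through which interferon signalling is known to switch such genes on. In each stretch the capitals mark matches to the core of the interferon-stimulated response element (ISRE), written GAAA, any pair of bases, then GAAA, and searched on both strands in the 250 bases before and 50 bases after the gene start; in Isg15 and Bst2 the matches overlap, and in Ifit1 they lie on the opposite strand. Sequences are from RefSeq, build GRCm38.p6, read 5′ to 3′ on the gene's strand.
Isg15, chr4:156200845-156200926, minus strand: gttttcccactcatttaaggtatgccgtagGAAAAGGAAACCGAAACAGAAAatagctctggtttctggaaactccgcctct
Bst2, chr8:71537557-71537632, minus strand: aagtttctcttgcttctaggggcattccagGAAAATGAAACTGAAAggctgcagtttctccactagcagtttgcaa
Ifit1, chr19:34640755-34640843, plus strand: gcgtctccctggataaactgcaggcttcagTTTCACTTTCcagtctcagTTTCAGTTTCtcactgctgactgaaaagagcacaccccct
Ddx60, chr8:61928004-61928107, plus strand: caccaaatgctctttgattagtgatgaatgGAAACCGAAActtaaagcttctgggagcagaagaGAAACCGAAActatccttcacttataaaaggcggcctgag

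Isg15, a ubiquitin-like protein, rose by 1.51, Bst2, which tethers budding viruses to the cell, by 1.05, Ifit1, which binds foreign RNA, by 2.16, and Ddx60, a helicase of the antiviral response, by 1.78. The motif was found in 10 of the 18 interferon-list genes with a promoter in the table (55.6%) and in 8 of the 15 of them that were called higher (53.3%). Over all tested genes with a promoter it was found in 657 of 16990 (3.87%), among genes called higher in KO in 62 of 952 (6.51%), and among genes called lower in 11 of 362 (3.04%). A match is a description of the letters and not evidence of binding.

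Interferon-stimulated genes were higher in KO as a group. Of 26 measured, 21 were called higher and none lower, against 5.50% and 2.06% of all genes, and their median difference was 1.39 against -0.02. Each array's mean over the list was 5.41 to 5.83 in HET and 6.95 to 7.20 in KO. Ifi27l2b, a small mitochondrial interferon-induced protein, measured 4.01, 4.06 and 3.44 in HET and 8.48, 8.35 and 8.05 in KO, a difference of 4.46 ± 0.25 (limma adjusted p = 1.26e-06). Usp18, the protease that removes ISG15 and dampens the interferon receptor, measured 6.62, 6.70 and 6.20 against 8.77, 9.04 and 9.02, a difference of 2.44 ± 0.19. Oasl2, an oligoadenylate synthetase-like protein, measured 4.84, 5.61 and 5.73 against 8.29, 7.96 and 8.08, a difference of 2.72 ± 0.27. Irf7, the transcription factor that amplifies type I interferon, differed by 1.88 ± 0.18. None of these groups overlapped, as was so for 1671 of the 1677 called genes. The members not called were Ifit3 (0.75), Mx1 (0.42), Mx2 (0.37), Stat2 (0.26) and Irf9 (0.23). Leaving out any 1 array gave 19 to 21 called members, and the fit with age gave 4.

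Of 18 sensors of foreign nucleic acid 9 were called higher and none lower (median 0.61). Ddx58 (RIG-I) measured 8.09, 8.20 and 7.62 in HET and 8.84, 8.95 and 8.90 in KO, and its regulator Dhx58 measured 5.74, 6.37 and 5.84 against 7.26, 7.19 and 6.98. The differences were 0.93 ± 0.14 and 1.16 ± 0.17. Ifih1 (MDA5) differed by 0.83 ± 0.14 and the double-stranded RNA receptor Tlr3 by 1.16 ± 0.19. Cgas, the cytosolic DNA sensor, was not called (-0.09), while its partner Sting1 rose by 0.87. Only 5 members were called without C2 or without C3.

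In the list of interferon-gamma targets and antigen presentation 14 of 22 were called higher and none lower (median 0.80). Ubd, the ubiquitin-like protein FAT10, measured 2.94, 2.94 and 3.47 in HET and 8.09, 7.19 and 8.89 in KO, a difference of 4.95 ± 0.35. The guanylate-binding protein Gbp3 rose by 1.89 ± 0.25, the immunoproteasome subunit Psmb8 by 0.89 ± 0.17 and the peptide-loading chaperone Tapbp by 0.81 ± 0.14; a dimmer probe set of Tapbp differed by 0.08 and was not called. The class II genes H2-Aa (1.24) and H2-Eb1 (1.18) and their activator Ciita (0.68) were called as well. B2m, the light chain of class I molecules, was not (0.22). The count was less firm than that of the interferon list: it was 6 without A2 or without C2, 9 without C4, and 8 when only the 6 HFD arrays were fitted.

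**Figure D3:**
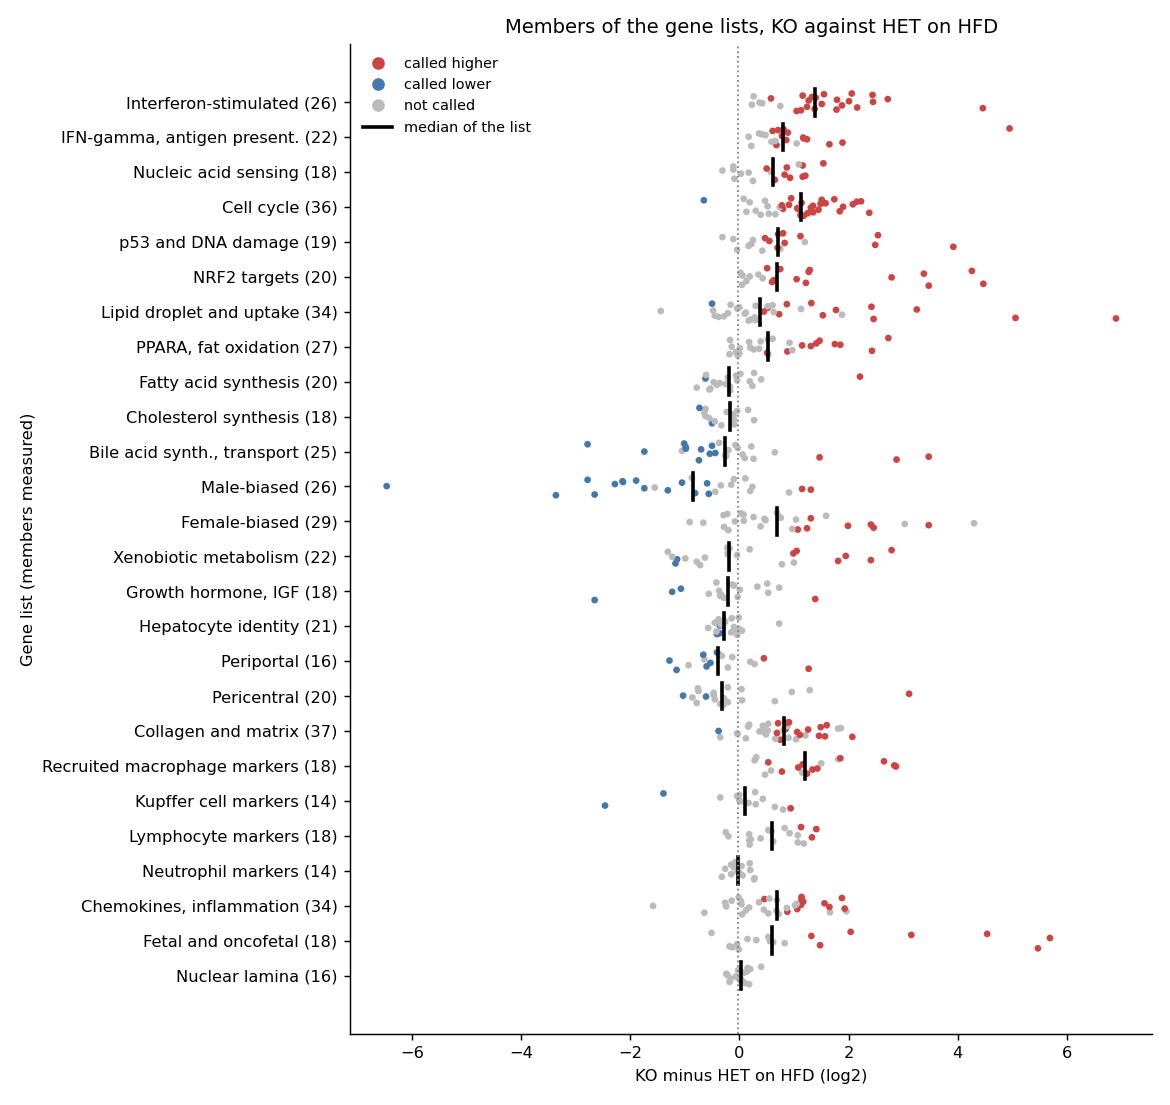
Each row is a gene list with the number of members measured, and each point is a member's KO minus HET difference on HFD (log2); red points were called higher in KO, blue points lower, grey points were not called, black bars are list medians and the dotted line is the median of all genes, -0.02. Interferon, cell cycle and recruited macrophage lists have medians of 1.39, 1.13 and 1.20, the male-biased list has a median of -0.84, and no member of the lamina or neutrophil lists was called.

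In the list of lipid droplet and fat uptake genes 12 of 34 were called higher, 1 lower and 21 were not called (median 0.38). Cidec, which enlarges lipid droplets, measured 4.19, 3.43 and 4.42 in HET and 9.06, 8.55 and 9.62 in KO, a difference of 5.06 ± 0.57. Cd36, a fatty acid transporter, measured 8.47, 8.56 and 8.70 against 10.96, 10.95 and 11.20, a difference of 2.46 ± 0.15 (limma adjusted p = 1.26e-06). Both groups were tight for Cd36 and no KO value came near a HET value. Mogat1, a monoacylglycerol acyltransferase, rose from near the array median by 3.25 ± 0.33. Smaller rises were seen for the droplet coat proteins Plin4 (2.42) and Plin2 (0.52), for lipoprotein lipase Lpl (1.77), for the adipocyte fatty acid carrier Fabp4 (1.53) and for the lipoprotein receptor Vldlr (1.32). The 1 called lower was the bile acid and fatty acid ligase Slc27a5 (-0.50). Dgat1 (0.28), Dgat2 (-0.38) and Gpam (-0.21), enzymes of triglyceride synthesis, were not called. The count of members called higher was 7 without C2 or without C4, and 6 with age in the fit.

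The share called was 10% in the fatty acid synthesis list and 11.1% in the cholesterol synthesis list, against 7.56% of all genes. Among 20 genes of fatty acid synthesis 1 was called higher and 1 lower (median -0.19), with 3 lower without B2 and 2 without C2. The first was Pparg, the adipogenic nuclear receptor, at 6.64, 6.62 and 4.65 in HET and 8.27, 8.21 and 8.07 in KO, a difference of 2.21 ± 0.44; without the low HET array B2 it was 1.55 and still called. The second was Mlxipl (ChREBP), the carbohydrate-responsive activator of lipogenesis, at 10.12, 10.40 and 10.29 against 9.60, 9.78 and 9.56, a difference of -0.62 ± 0.12. Fasn (-0.36), Scd1 (-0.06), Acaca (-0.17) and Srebf1 (-0.61) were not called. Of 18 genes of cholesterol synthesis none was called higher and 2 lower (median -0.18), Tm7sf2 (-0.73 ± 0.19) and Ebp (-0.50 ± 0.13). Both calls were marginal, each lost without any 1 of 5 HFD arrays while the differences stayed at -0.59 to -0.78 and -0.44 to -0.52. No member was called without A2, B1, C3 or C4, and 9 were called lower without B2.

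Targets of the fatty acid receptor PPAR alpha and oxidation genes included 10 of 27 called higher and none lower (median 0.52). Ehhadh, the bifunctional enzyme of peroxisomal oxidation, measured 10.14, 10.12 and 9.97 in HET and 11.47, 11.34 and 11.64 in KO, a difference of 1.41 ± 0.12. Acot2, a mitochondrial acyl-CoA thioesterase, measured 8.98, 8.84 and 7.47 against 10.76, 11.26 and 10.56, a difference of 2.43 ± 0.33. The pantetheinase Vnn1 (2.73), the kinase Pdk4 (1.47) and the omega-hydroxylases Cyp4a14 (1.85) and Cyp4a31 (1.75 ± 0.26) were called, and the array may not separate the Cyp4a genes from each other. Mitochondrial beta-oxidation enzymes made up few of the calls: Acadm rose by 0.51, while Cpt1a (0.01), Acadl (0.00), Acadvl (-0.06) and Hadha (0.18) were not called, and neither was Ppara (-0.17). The count was 6 without B2 and 6 when only the HFD arrays were fitted. The share called in the glucose and insulin list was 15%, against 7.56% of all genes. In that list 1 of 20 was called higher, hexokinase Hk2 (1.21 ± 0.26). The 2 called lower were the insulin receptor Insr (-0.47 ± 0.11) and liver glycogen phosphorylase Pygl (-0.52 ± 0.14). All 3 calls were lost when some arrays were left out, with limma adjusted p of 0.0577 to 0.0628 for Hk2 (without A2 or C2), 0.0605 to 0.0724 for Insr (without A2, B1, C2 or C3) and up to 0.16 for Pygl, lost without A2, B1, C3 or C4 and without 6 of the chow arrays.

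Of 25 bile acid genes 10 were called lower and 3 higher (median -0.26). The 3 were export pumps: Abcc4 (MRP4) measured 4.82, 4.79 and 4.72 in HET and 8.12, 8.09 and 8.53 in KO, a difference of 3.47 ± 0.21 (limma adjusted p = 1.26e-06). Abcb1a, the P-glycoprotein drug pump, measured 4.66, 4.03 and 5.35 against 7.31, 7.48 and 7.88, a difference of 2.88 ± 0.35, and Abcc3 (MRP3) differed by 1.47. Those called lower included the uptake carriers Slco1a1 (-2.78), Slco1a4 (-1.01) and Slc10a1 (NTCP, -0.98), the canalicular bile salt pump Abcb11 (-0.74), the enzymes Cyp7b1 (-1.74 ± 0.28) and Cyp27a1 (-0.54), and the repressor Nr0b2 (SHP, -0.98). Cyp7a1, the rate-limiting enzyme of bile acid synthesis, was not called (0.65), and neither was Cyp8b1 (-1.05). The number called lower was 6 without A2 and 5 without B1 or without C4, 4 when only the HFD arrays were fitted, and with age in the fit it was 0 while the 3 pumps were still called.

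Targets of NRF2, the transcription factor of the oxidative stress response, were higher in KO, with 13 of 20 called higher and none lower (median 0.69). Array means over the list were 7.09 to 7.14 in HET and 8.41 to 8.51 in KO. Nqo1, a quinone reductase, measured 5.27, 5.20 and 5.15 in HET and 8.54, 8.27 and 8.94 in KO, a difference of 3.38 ± 0.22 (limma adjusted p = 2.35e-06). Gstm3, a glutathione transferase, measured 8.27, 8.15 and 8.09 against 10.93, 10.84 and 11.10, a difference of 2.79 ± 0.19. Slc7a11, the cystine importer, measured 2.17, 1.90 and 1.89 against 6.73, 5.69 and 6.31, a difference of 4.26 ± 0.36, but a dimmer probe set of Slc7a11 differed by 0.10 and was not called. Cbr3, a carbonyl reductase, measured 2.61, 3.23 and 2.16 against 7.20, 6.73 and 7.49, a difference of 4.47 ± 0.53. The HET and KO groups were apart for all 4 genes, as for nearly all called genes. Srxn1 (1.29), Pgd (1.27), Ephx1 (1.22), Gclc (0.60) and Txnrd1 (0.51) were called too, whereas Hmox1 (0.19), Gclm (0.13), Osgin1 (0.02) and Nfe2l2, the gene of NRF2 itself (0.35), were not.

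The antioxidant response element core TGACNNNGC, searched in the same windows on both strands, was found in 6 of 17 NRF2-list promoters (35.3%), including Abcc4, Pgd, Srxn1 and Txnrd1, against 14.9% of all tested genes with a promoter. It was not in the windows of Nqo1, Gstm3, Slc7a11 or Cbr3. Among 22 genes of drug metabolism 6 were called higher and 2 lower (median -0.20). The first count was 4 without A2, B2 or C2, and the second was 4 without the chow array I1. The phenobarbital-responsive Cyp2b10 measured 1.32, 1.45 and 1.73 in HET and 3.52, 3.17 and 5.05 in KO, a difference of 2.41 ± 0.37 from below the array median. Gstm1 rose by 1.05 ± 0.14, Cyp2a5 by 1.81 and Cyp3a11 by 0.99. The carboxylesterase Ces2a fell by 1.17 ± 0.12 and Cyp2c29 by 1.14. Closely related Gstm, Cyp2a and Ces genes may share signal on the array.

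Male-biased liver genes were lower in KO, with 14 of 26 called lower and 2 higher (median -0.84); array means over the list were 9.62 to 9.78 in HET and 8.37 to 8.69 in KO. Beside Hsd3b5, Slco1a1, Serpina1e, Mup21 and Cyp7b1, those called lower included Cyp2u1 (-1.31), Nudt7 (-1.05), the complement genes C8a (-0.81) and C6 (-0.56), and Mup3 (-0.59). The 2 called higher were the fatty acid hydroxylases Cyp4a12a (1.31 ± 0.21) and Cyp4a12b (1.15), near-identical genes that also belong to the PPAR alpha list. Cyp2d9 (-0.44), Elovl3 (-1.55) and Mup20 (-0.15) were not called. The number called lower was 9 without B1, B2 or C2, 8 without C4, and 2 with age in the fit.

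Female-biased genes were higher in part, with 7 of 29 called higher and none lower (median 0.69). Cyp2a4, a steroid hydroxylase, measured 6.81, 6.68 and 4.88 in HET and 9.23, 9.85 and 9.70 in KO, a difference of 3.47 ± 0.52, and 2.85 without B2. Gas6, a ligand of the TAM receptor kinases, rose by 1.31 ± 0.19, Abcd2, a peroxisomal fatty acid transporter, by 1.07, and Cd36, described above, is also on this list. Cyp2b9 (4.30) and Cyp2b13 (3.03) were not called despite large differences. Without the chow array P1, a HET mouse, 11 members were called.

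In the growth hormone and IGF pathway 3 of 18 genes were called lower and 1 higher (median -0.21). Bcl6, a repressor that maintains male-type expression in liver, measured 8.81, 7.18 and 9.18 in HET and 6.06, 5.33 and 5.83 in KO, a difference of -2.65 ± 0.65. The call was lost without any 1 of A2, B2, C2, C3 and C4 (limma adjusted p 0.0562 to 0.088), and with age in the fit the difference was 0.82. The cytokine receptor Lifr measured 10.74, 10.54 and 10.92 against 9.75, 9.80 and 9.44, a difference of -1.07 ± 0.17, and Igfbp2, which binds insulin-like growth factors, differed by -1.23 ± 0.22. Cish, a feedback inhibitor of cytokine signalling, was the 1 called higher (1.39 ± 0.38); 9 of the 14 single omissions ended its call, with limma adjusted p up to 0.13, and its dimmer probe set was not called (0.95). The growth hormone receptor Ghr (-0.35), Stat5b (-0.42), Igf1 (-0.33) and Socs2 (-0.10) were not called.

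**Figure D4:**
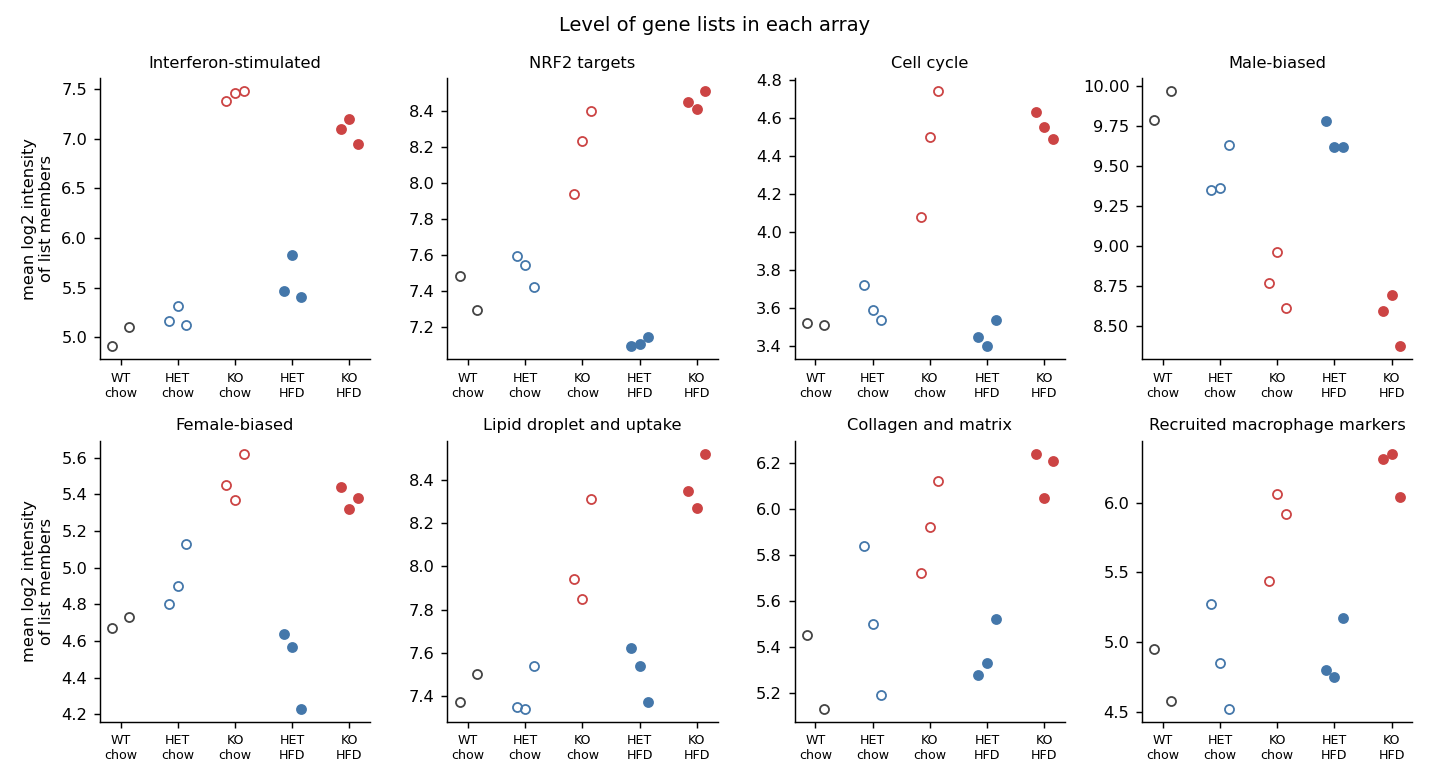
Each point is 1 array's mean log2 intensity over the members of a gene list, for 8 lists and all 5 groups of the series; open symbols are chow, filled symbols HFD, black is LMNA +/+, blue HET and red KO, and each panel has its own y axis. In these 8 lists, a choice from 35, the 3 KO arrays on HFD lie apart from the 3 HET arrays on HFD. They lie above them in 7 and below them for the male-biased list (8.37 to 8.69 against 9.62 to 9.78). In some lists not shown the groups overlap, as in fatty acid synthesis (10.09 to 10.39 in KO against 10.04 to 10.55 in HET).

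Cell cycle genes were higher in KO from a low level. Of 36, 25 were called higher and 1 lower, with a median difference of 1.13, and array means over the list were 3.40 to 3.54 in HET and 4.49 to 4.63 in KO. Prc1, a protein of the mitotic spindle midzone, measured 3.15, 3.13 and 2.84 in HET and 5.25, 5.09 and 5.47 in KO, a difference of 2.23 ± 0.22. Ccnb2, a mitotic cyclin, measured 2.84, 2.65 and 3.72 against 5.44, 5.67 and 5.24, a difference of 2.38 ± 0.29. Mcm5, of the helicase that opens replication origins, measured 3.20, 3.38 and 3.85 against 5.47, 5.97 and 5.22, a difference of 2.08 ± 0.28. All 3 genes had separate groups, as nearly all called genes did. Tpx2 (1.74 ± 0.21), Plk1 (2.15), Top2a (1.51), Mki67 (1.58), Ccnd1 (1.35) and 4 other Mcm genes (0.78 to 1.49) were also called. Thymidine kinase Tk1 was the 1 called lower (-0.65), a call lost without any 1 of the HFD arrays or of the chow arrays F2, H1, H2 and I1, and Pcna (0.19), Tyms (0.08) and Ccne1 (0.13) were not called. Omitting single arrays left 21 to 25 called higher, but none was called with age in the fit.

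The list of p53 targets and DNA damage genes had 10 of 19 called higher and none lower (median 0.70). Cdkn1a, the cell cycle inhibitor p21, measured 5.0, 5.60 and 5.0 in HET and 8.98, 8.92 and 9.47 in KO. The difference was 3.92 ± 0.64 (limma adjusted p = 0.00274), and 0.60 with age in the fit (limma adjusted p = 0.914). The death receptors Tnfrsf10b (2.54 ± 0.33) and Fas (0.83 ± 0.14) and the ectodysplasin receptor Eda2r (2.49 ± 0.28) rose too, the first and the last from near the array median. Mdm2 rose by 0.55 and Ccng1 by 0.70, while Bbc3 (-0.04), Pmaip1 (-0.11) and Cdkn2a (0.17) were not called. Only 5 members were called without A2 or without C2, and 6 without B1 or without C3; with age in the fit none was.

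Collagen and matrix genes had 14 of 37 called higher and 1 lower (median 0.81). Col1a2, a chain of type I collagen, measured 4.22, 4.60 and 5.12 in HET and 6.43, 5.85 and 6.37 in KO, a difference of 1.57 ± 0.28. Col3a1, the chain of type III collagen, measured 5.02, 5.28 and 5.34 against 6.70, 6.50 and 6.83, a difference of 1.46 ± 0.23. Col1a1 rose by 2.07, the gelatinase Mmp2 by 1.49, the growth factor Tgfb2 by 1.60 ± 0.17 and the collagen-binding proteoglycan Lum by 1.26 ± 0.19. Fibronectin Fn1, which hepatocytes secrete in large amounts, was the 1 called lower (-0.38), though not without A2, B1, C3 or C4. Tgfb1 (0.43), Timp1 (0.53), Lox (0.52) and Postn (0.16) were not called. Omitting single arrays left 10 to 16 called higher, and with age in the fit none was. Of 17 stellate cell markers 1 was called higher, Dpt, a dermatopontin of the matrix (2.37 ± 0.41), and 3 lower, Reln (-0.76 ± 0.16), Ecm1 (-0.95 ± 0.20) and Vipr1 (-0.58 ± 0.16). The call of Ecm1 was lost without A2, C2 or C4 and that of Vipr1 without 11 of the 14 arrays, with limma adjusted p up to 0.063 and 0.163. The list had 2 called higher without B2, C3 or the chow array P1, and 1 called lower without A2 or C4. Array means over the stellate markers were 6.46 to 6.63 in HET and 6.63 to 6.78 in KO. Lrat (-0.15), which stores vitamin A, Des (0.27), Acta2 (0.73) and Pdgfrb (0.81) were not called.

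Markers of recruited macrophages were also higher in KO. Of 18, 11 were called higher and none lower (median 1.20); array means over the list were 4.75 to 5.17 in HET and 6.04 to 6.35 in KO. Cx3cr1, the fractalkine receptor, measured 2.82, 3.38 and 2.93 in HET and 5.93, 5.70 and 6.11 in KO, a difference of 2.87 ± 0.17 (limma adjusted p = 1.26e-06). Trem2, a lipid receptor of macrophages, measured 3.37, 3.09 and 3.64 against 5.56, 5.39 and 4.70, a difference of 1.85 ± 0.23. The monocyte antigen Ly6c2 measured 2.02, 2.14 and 1.91 against 5.34, 4.95 and 3.75, a difference of 2.65 ± 0.36. KO array C4 was the lowest of the 3 for Trem2 and Ly6c2 and the highest for Cx3cr1. Gpnmb (2.84), Clec7a (1.43), Itgam (1.16), Cd9 (1.34) and Ctss, a lysosomal protease (1.08 ± 0.17), were called, and Adgre1 (0.47), Cd68 (0.58), Ccr2 (1.15) and Lyz2 (0.28) were not. The part of these cells in the other differences was not tested.

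Of 14 resident Kupffer cell markers 2 were called lower and 1 higher (median 0.10), with array means of 7.53 to 7.89 in HET and 7.59 to 7.68 in KO. Cd163, the haemoglobin scavenger receptor, measured 7.63, 7.47 and 7.18 in HET and 3.54, 5.86 and 5.49 in KO, a difference of -2.46 ± 0.45, or -1.75 without the low KO array C2. Timd4, the phosphatidylserine receptor of embryonically seeded Kupffer cells, measured 6.84, 6.69 and 6.93 against 5.33, 5.57 and 5.37, a difference of -1.39 ± 0.22. Clec4f (0.00), Vsig4 (0.29), Marco (-0.04) and Cd5l (0.30) were not called. The complement gene C1qb was the 1 called higher (0.94 ± 0.21); 2 markers were called higher without the chow array F1, and its own call was lost without A2 or C2 (limma adjusted p 0.0653 and 0.0669) and its difference was -0.23 with age in the fit.

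Among the other cell markers, the share called was 16.7% for lymphocyte genes and 10.5% for endothelial markers. It was 11.1% for markers of fat, pancreas and red cells, and 7.56% over all genes. Of 18 lymphocyte genes 3 were called higher and none lower (median 0.60, array means 3.18 to 3.47 in HET and 3.81 to 4.18 in KO). They were the pan-leukocyte phosphatase Ptprc (1.13 ± 0.21), the T cell coreceptor Cd8b1 (1.33 ± 0.35) and the NK receptor Ncr1 (1.41 ± 0.39). The last 2 calls were lost without any 1 of 5 and of 11 arrays, with limma adjusted p up to 0.131 and 0.14, and Cd8b1 was -0.70 with age in the fit. Without C2 the difference of Ncr1 was 0.89. Only 1 member was called without A2 or without C4, and Cd3e (1.18), Cd4 (0.62) and Cd79a (0.18) were not called. No neutrophil marker of 14 was called or had an unadjusted limma p under 0.05, and 12 of them lay below the array median in both groups. Of 19 endothelial markers Cd34 was called higher (1.96 ± 0.42) and the scavenger receptor Stab2 lower (-0.40 ± 0.11). Both calls were lost when single arrays were omitted, with limma adjusted p up to 0.0611 for Cd34 (A2, B1, C2 or C4) and 0.142 for Stab2 (12 of the 14 arrays), and Stab2 was 0.06 with age in the fit. Of 9 markers of fat, pancreas and red cells, measured to look for other tissue in the samples, the elastase Cela1 was called (1.82 ± 0.34), and 7 lay below the array median in both groups.

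Chemokines and inflammatory genes included 11 of 34 called higher and none lower (median 0.68). Cd14, the lipopolysaccharide coreceptor, measured 2.97, 2.71 and 3.46 in HET and 4.56, 5.16 and 5.20 in KO, a difference of 1.93 ± 0.38. Tlr2, a receptor for bacterial lipoproteins, rose by 1.14 ± 0.20 and Ccl4, a chemokine for monocytes and T cells, by 0.88 ± 0.17 from below the array median. The transmembrane chemokine Cxcl16 was called (1.13 ± 0.24), but not without B1 (limma adjusted p = 0.0517), and its difference was -0.01 with age in the fit. The adhesion molecules Icam1 (1.56) and Vcam1 (1.14), the NF-kB inhibitor Tnfaip3 (1.88) and Cxcl10 (1.65) were called. Tnf (0.55), Il1b (0.36), Il6 (0.03) and Ccl2 (0.72) were not. The count was 3 without B1, 5 without A2 or C4 and 7 without C3.

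Of 23 acute phase genes 4 were called higher and 1 lower (median 0.10). The share called was 21.7%, against 7.56% of all genes. Orm2, an orosomucoid that carries basic drugs, measured 6.58, 6.04 and 5.92 in HET and 9.36, 9.41 and 9.71 in KO, a difference of 3.32 ± 0.23. Lcn2, the siderophore-binding lipocalin, measured 5.80, 5.67 and 5.96 against 8.82, 8.90 and 9.44, a difference of 3.24 ± 0.49. Orm3 measured 5.12, 3.95 and 1.77 against 7.30, 7.35 and 6.89, a difference of 3.57 ± 0.95, and was no longer called without B1, B2, C2, C3, C4 or the chow array H2 (limma adjusted p 0.0519 to 0.125). Orm2 and Orm3 may share signal. The complement gene C4a fell by 2.05 ± 0.32, and 2 members were called lower without B2. Saa2 (0.94), Saa3 (-1.06), Hp (0.37), Crp (-0.36) and the fibrinogen chains Fga (-0.30), Fgb (-0.22) and Fgg (-0.33) were not called. Without single arrays 2 to 4 members were called higher, with 2 left without B1, B2, C3, C4 or the chow array H2.

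Of 18 fetal and oncofetal genes 7 were called higher and none lower (median 0.59), and 7 or 8 were called without any 1 array. Beside Ly6d, Apela and Spink1, these were Sox4, a transcription factor of progenitor cells, at 2.40, 2.98 and 3.67 in HET and 6.21, 6.38 and 5.90 in KO (3.15 ± 0.27), the tetraspanin Tspan8 (2.04), the surface glycoprotein Cd24a (1.48) and Prom1 (1.32). The genes best known from fetal liver, Afp (-0.01), Igf2 (0.56), Dlk1 (-0.04) and Gpc3 (0.62), were not called. Ly6d, Apela and Spink1 are also among the largest rises of this comparison. The list was chosen with earlier results of these data known, so its count does not test whether fetal genes rose as a set. Cholangiocyte markers had 3 of 13 called higher (5 without C3) and none lower (median 0.46): the annexin Anxa13, at 3.30, 2.72 and 3.09 in HET and 7.44, 6.83 and 8.25 in KO (4.47 ± 0.30), the RNA-binding protein Bicc1 (1.85 ± 0.30) and the mucin Muc1 (1.54 ± 0.26). The keratins Krt19 (0.34) and Krt7 (0.09) and the duct transcription factor Sox9 (0.46) were not called, and array means over the list were 3.68 to 3.76 in HET and 4.33 to 4.87 in KO.

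Genes of hepatocyte identity were mostly slightly lower in KO, with a positive difference in only 2 of 21. An unadjusted limma p under 0.05 was reached by 10 of them, against 20.5% of all genes. Array means over the list were 10.06 to 10.25 in HET and 9.93 to 9.98 in KO. The share called was 14.3%, against 7.56% of all genes (2.06% lower). Of 21, 3 were called lower and none higher (median -0.28): apolipoproteins Apoa1 (-0.41 ± 0.10) and Apob (-0.36 ± 0.10) and the transcription factor Hnf4a (-0.36 ± 0.10). None of the 3 calls held when each array was omitted in turn, with limma adjusted p up to 0.133, 0.15 and 0.156, and no member was called without A2, B2, C2, C3 or C4, after centring arrays on their median, or when only the 6 HFD arrays were fitted. Among 16 periportal genes 6 were called lower and 2 higher (median -0.40). The urea cycle enzymes Cps1 (12.83, 12.85 and 12.89 in HET against 12.41, 12.28 and 12.29 in KO, -0.53 ± 0.09) and Asl (-0.60 ± 0.10), the arginine transporter Slc7a2 (-0.66 ± 0.13), the phosphoethanolamine lyase Etnppl (-1.28 ± 0.27), Agxt (-1.15) and Uox (-0.41) were lower, and Aldh1b1 (1.27) and the droplet protein Hsd17b13 (0.45) were higher; neither of these rises was called without B1, C2, C3 or C4.

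Pericentral genes were mostly not called, with 1 of 20 higher (2 without B1, F1 or P1) and 2 lower (median -0.32). Over all genes 5.50% were called higher and 2.06% lower. Rhbg, an ammonium channel of the cells around the central vein, measured 5.39, 5.13 and 5.05 in HET and 8.25, 8.41 and 8.25 in KO, a difference of 3.11 ± 0.33. Its neighbours in that zone, glutamine synthetase Glul (0.05), Cyp2e1 (-0.21) and Axin2 (-0.35), were not called. The Wnt antagonists Nkd1 (-0.61 ± 0.16) and Notum (-1.03 ± 0.28) were lower, but Nkd1 was not called without A2, B1, C3 or C4 and Notum not without A2, B1, B2, C2 or C4 (limma adjusted p up to 0.123 and 0.128). Notum was 0.06 with age in the fit, and its other probe set was not called (-0.29).

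The share called was 8.7% in the endoplasmic reticulum stress and ATF4 list and 16% among YAP and SRF targets, against 7.56% of all genes. Array means over the YAP and SRF list were 5.54 to 5.75 in HET and 5.99 to 6.01 in KO. Of 23 genes of endoplasmic reticulum stress and ATF4, 2 were called higher and none lower (median 0.25): Psat1 of serine synthesis, from below the array median (2.10 ± 0.25), and the stress sensor Sesn2 (1.12 ± 0.24), which was not called without B1 (limma adjusted p = 0.052). Without B2 the list had 4 called higher, and without A2 it had 1 called lower. Of 25 YAP and SRF targets 4 were called higher and none lower (median 0.37): Ankrd1 (1.98 ± 0.31), Ajuba (1.21 ± 0.22), Axl (0.91 ± 0.18) and Tpm1 (0.65 ± 0.12), while Ccn1 (0.36), Ccn2 (1.04) and Actb (0.04) were not. No clock gene of 18 was called, and 3 had an unadjusted limma p under 0.05 (median -0.34), against 20.5% of all genes; without the chow array P1, 3 were called lower.

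The same genotypes on chow differed in 426 genes (1.92%), 320 higher (1.44%) and 106 lower (0.478%) in KO. The chow and HFD comparisons share no array, though both come from 1 fit. Called on both diets were 284 genes, 16.9% of the HFD calls and 66.7% of the chow calls, 282 of them in the same direction. Of the HFD calls 1474 (87.9%) had the same sign on chow, and of the chow calls 395 (92.7%) had the same sign on HFD, against 59.8% of all genes. Fewer calls on chow do not by themselves show a smaller effect there: the median absolute difference of the HFD calls was 0.88 on HFD and 0.38 on chow, and that of the chow calls was 0.88 on HFD and 1.05 on chow, each larger on the diet that chose the genes.

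Whether the KO minus HET difference itself differed between the diets was tested by the interaction in limma, which called 8 genes (0.0361%), 7 with a higher value on HFD and 1 with a lower one. At an unadjusted p under 0.05 there were 2187. Slc16a5, a monocarboxylate transporter of the SLC16 family, had the smallest p: it measured 4.89, 5.41 and 5.21 in HET and 8.44, 8.73 and 8.95 in KO on HFD, a difference of 3.54 ± 0.20, against 0.93 ± 0.20 on chow, so that the diets differed by 2.61 ± 0.28 (limma adjusted p = 0.00908). The group means were 6.57 and 7.50 on chow. For Gstm3 the KO mean on chow was 10.95, much as on HFD, whereas the HET mean was 9.98 on chow and 8.17 on HFD, and the diets differed by 1.82 ± 0.27 (limma adjusted p = 0.045). Nqo1 differed by 2.05 ± 0.31 (limma adjusted p = 0.045), with chow means of 6.54 in HET and 7.86 in KO. Each of the 8 calls was lost without some single array, and no gene was called without the chow array F2 or without H2.

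**Figure D5:**
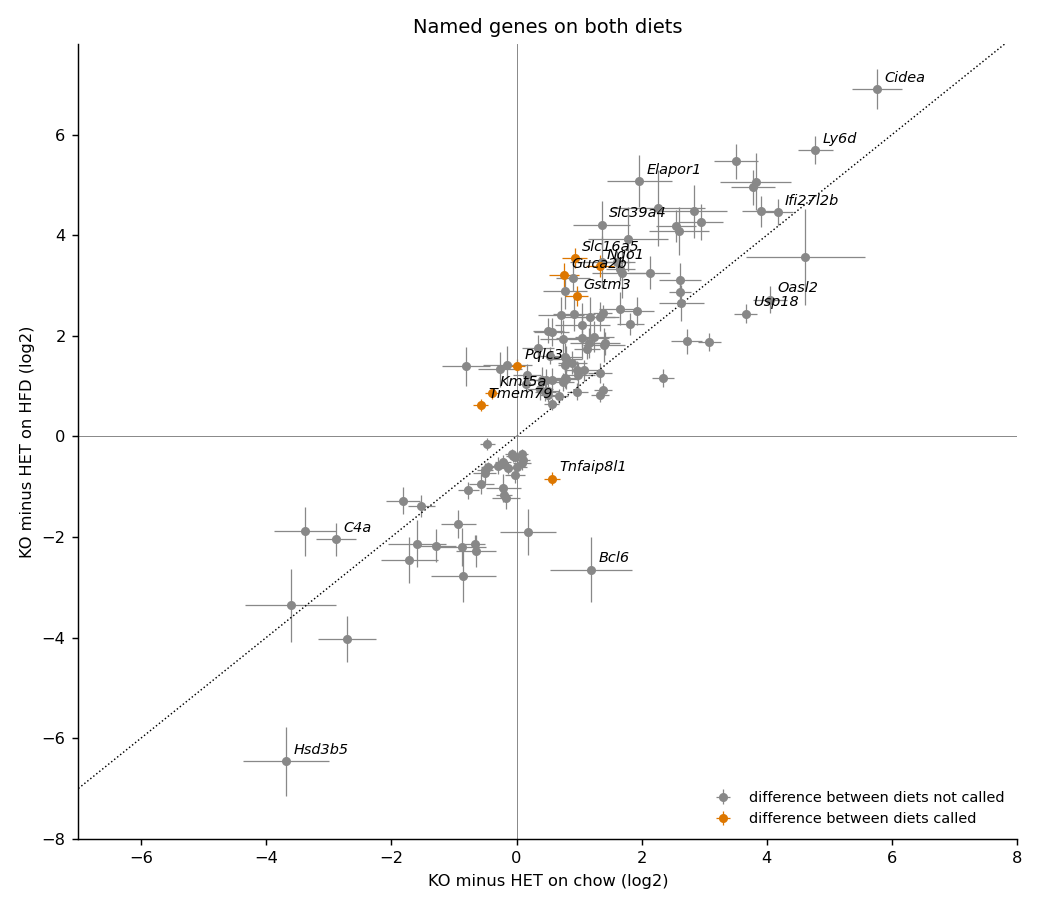
Each point is 1 of the named genes, with its KO minus HET difference on chow on the x axis and on HFD on the y axis (log2; bars are standard errors from limma, and the dotted line marks equal differences). Orange points are the 8 genes whose difference between the diets was called; Cidea, Ly6d and Hsd3b5 lie at the same sign on both diets, and Oasl2 and Usp18 lie below the line with 2.72 and 2.44 on HFD against 4.05 and 3.66 on chow.

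The gene groups differed in how the diets compared, with no test at the level of a list. For 25 of the 26 interferon genes the KO minus HET difference was smaller on HFD than on chow, with list medians of 1.39 and 2.15, although no member's interaction was called. Array means over that list were 5.12 to 5.32 in HET and 7.38 to 7.48 in KO on chow, so that on HFD the HET arrays lay higher and the KO arrays lower than on chow. For NRF2 targets the order was the opposite, with a larger difference on HFD for 17 of 20 members and medians of 0.69 on HFD and 0.33 on chow. Their array means were 7.42 to 7.59 in HET and 7.94 to 8.40 in KO on chow, against 7.09 to 7.14 and 8.41 to 8.51 on HFD. A larger difference on HFD was also found for 17 of 18 recruited macrophage markers (medians 1.20 and 0.86) and for 31 of 37 matrix genes (0.81 and 0.28), with no interaction called in either list. Over all genes 11121 of 22180 had the higher value on HFD. Most of the 14 largest rises were also called on chow, with Cidea at 5.76 and Ly6d at 4.77. Elapor1 (1.96), Spink1 (2.26) and Slc39a4 (1.36) were not called there (limma adjusted p 0.0857, 0.188 and 0.192). Of the 14 largest falls, Hsd3b5, Adgrf1, Adh6-ps1, C4a and Serpina4-ps1 were called lower on chow and the others were not called. Bcl6 had opposite signs, 1.19 on chow and -2.65 on HFD, and its interaction of -3.84 ± 0.92 was not called (limma adjusted p = 0.192). The age gap between KO and HET also differed, being 13.3 weeks on chow and 5.17 weeks on HFD, and its part in these differences was not tested.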

How the data were processed

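Liver RNA of 14 mice (400 ng per sample, per the labels' protocols) was measured on Affymetrix arrays after labelling by that maker's whole-transcript kit. Each probe set's deposited value is a log2 intensity that the authors made with RMA, which corrects background, equalizes distributions between arrays and summarizes probes; RMA and limma are named without versions in the submitters' processing notes. No genome build is given in the sources used here.

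Of 41345 probe sets, 23521 carried 1 gene symbol, 1814 several and 16010 none. The brightest probe set over the 14 arrays was kept for each gene, which left 22180 genes, 1082 of them with several probe sets, and no filter on level. All 14 arrays entered 1 linear model of the group means in limma 3.58.1 in R 4.3.3 (9 residual and 3.83 prior degrees of freedom), so the 5 groups share 1 estimate of spread. P-values were adjusted by Benjamini and Hochberg over all genes. The fit was tested on simulated data. The number of arrays limits the precision.

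Named genes are Lmna, the 14 largest rises and 14 largest falls among called genes without overlap (predicted genes, small RNAs and receptor segments left out), up to 4 called members of each list by smallest p, and the 8 called interactions; other list members are given only by their differences. The members and the 35 lists, 8 of them cell markers, were chosen with earlier results of these data known. Of 832 list entries 753 were measured. Of the 125 named genes, 7 have a further probe set, called in the same direction for Col1a2, Sox4 and Slc16a5 and not for Slc7a11, Tapbp, Cish and Notum. Alternatives covered the variance model, array weights, scaling, dim genes, probe sets, thresholds, single arrays, array letter and age.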

Additional observations from a re-analysis of the deposited data

Results flagged for a closer look

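For 8 genes the KO minus HET difference itself differed between HFD and chow in the interaction test of limma (adjusted p under 0.05). Slc16a5 had the largest gap, 2.61 ± 0.28 (limma adjusted p = 0.00908). Guca2b, the gut peptide uroguanylin, had 3.21 ± 0.24 on HFD and 0.76 on chow, a gap of 2.45 ± 0.34 (limma adjusted p = 0.0375); its HET arrays on HFD, at 1.96, 2.25 and 2.00, were below the array median and its KO arrays were at 5.36, 5.12 and 5.36. The NRF2 targets Nqo1 and Gstm3 had gaps of 2.05 and 1.82 (limma adjusted p = 0.045 each).

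Opposite signs on the diets were seen in 3 genes. Kmt5a, a histone H4 methyltransferase, measured 9.28, 9.41 and 9.39 in HET and 10.18, 10.27 and 10.21 in KO on HFD, a difference of 0.86 against -0.39 on chow and a gap of 1.25 ± 0.15 (limma adjusted p = 0.0171). Tmem79 had 0.62 on HFD and -0.57 on chow, a gap of 1.18 ± 0.17 (limma adjusted p = 0.045). Tnfaip8l1 measured 6.80, 6.67 and 6.76 in HET and 5.89, 5.82 and 6.00 in KO on HFD, a difference of -0.84 against 0.57 on chow, and was the only one with a negative gap, -1.41 ± 0.19 (limma adjusted p = 0.0275). Pqlc3 had 1.40 on HFD and 0.01 on chow, a gap of 1.39 ± 0.18 (limma adjusted p = 0.0272), from HET values of 1.84, 2.08 and 2.12.

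Each of the 8 was lost without at least 2 of the 14 arrays taken singly: Slc16a5 without F2 or H2 (limma adjusted p 0.0533 and 0.0526), and the others without 5 to 12 arrays, with limma adjusted p up to 0.152.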

How the results depend on the processing

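The HFD count of 1677 stayed between 1280 and 1859 under array weights, another variance prior, dim genes left out, averaged or all probe sets, other scalings, the array letter as a random block, a 1.5-fold minimum and a fit of only the arrays compared. It was 705 at an adjusted p under 0.01 and 249 with age as a linear term; leaving out 1 array gave 971 to 1788. Arrays centred on their median gave 82.5% of calls as higher, against 72.8%. The 8 interactions became 29 with array weights, 24 with another variance prior, 27 with dim genes left out, 20 after centring, 5 with the array letter as a random block, 1 at an adjusted p under 0.01, 206 with age, none with all probe sets, and 0 to 43 without 1 array. The chow count of 426 was 216 with only the arrays compared, 157 at an adjusted p under 0.01, 201 with age, and 199 to 520 without 1 array; these chow values and the age fit of single genes were added after seeing the data. Of the 124 named genes called on HFD, 98 were called without any 1 array. With age the differences of Bcl6 (0.82), Cxcl16 (-0.01), Notum (0.06), C1qb (-0.23), Cd8b1 (-0.70) and Stab2 (0.06) changed sign. The cause was not tested, and no KO array informs the age slope. No named gene changed sign under the other alternatives. The list medians near 0 of lamina, neutrophil and endothelial genes changed sign with scaling (0.03, 0.09 and -0.05 for lamina). No paired analysis was possible because the labels give array names but no replicate numbers that the groups share. Signal near the array median limits the size of changes from a dim group.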
